A study of Homo sapiens with 9 samples.

Results

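The 8 genes described here are the receptors and exporters of sphingosine-1-phosphate (S1P): S1PR1, S1PR2, S1PR3, S1PR5, SPNS1, SPNS2, ABCC1 and ABCG2. They were chosen by name and matched by gene identifier, and are 8 of the 60671 genes counted in each library. The libraries were made from polyadenylated RNA of untreated N/TERT cells, a telomerase-immortalised line of human epidermal keratinocytes. KO cells carried a CRISPR knockout of SGPL1, the gene of S1P lyase, OE cells overexpressed SGPL1, and control cells were wild type, with 3 libraries in each of the 3 groups. The submitters call the libraries biological replicates. How many edited clones they represent was not given in the sources used here, nor was the means of overexpression. A p-value below compares a difference with the spread among libraries of a group, and that spread may be partly technical.

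S1P is made inside the cell from sphingosine and is degraded for good by S1P lyase in the endoplasmic reticulum. To act on a receptor it has to leave the cell, through the dedicated transporter SPNS2 or, in some cell types, through ATP-driven pumps such as ABCC1 and ABCG2. Outside, it binds G protein-coupled receptors of the S1PR family, and in keratinocytes it is known as a lipid that slows proliferation and favours differentiation.

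Gene counts summed to between 6317564 and 13330479 per library, so that 3 counts corresponded to 0.225 to 0.475 CPM, counts scaled to a library of 1000000. All 10 keratinocyte markers examined, among them KRT5, KRT14 and TP63, averaged at least 1 CPM in each group. Their summed level was 15225 to 16853 CPM in KO libraries, 25257 to 26535 in OE libraries and 24637 to 25110 in control libraries. The endothelial markers PECAM1, TEK and ERG and the immune markers PTPRC, CD3E and CD68 had no count in any library. The 6 endothelial markers together reached at most 2.03 CPM in KO, 0.664 CPM in OE and 1.64 CPM in control libraries, and the 6 markers of blood and immune cells at most 1.18 CPM in KO, 1.99 CPM in OE and 2.32 CPM in control libraries. Of these markers, only VWF in control cells and LCP1 in OE and control cells averaged at least 1 CPM. Endothelial and blood cells are types in which several of these receptors are well known. Fibroblast markers, led by COL1A1, summed to 8.46 to 15.1 CPM in KO, 24.5 to 28.4 CPM in OE and 21.5 to 28.3 CPM in control libraries. Melanocyte markers summed to 69.2 to 76.5 CPM in KO, 60.0 to 71.3 CPM in OE and 89.8 to 101.2 CPM in control libraries. PMEL and MITF averaged at least 1 CPM in each group, and TYR and DCT had no count. The part of these marker levels in the results below was not tested. In bulk RNA, fewer cells of a type and less RNA per cell cannot be told apart. The edited gene, SGPL1, had 58.8, 58.3 and 61.6 CPM in KO libraries, 1132, 1104 and 929 CPM in OE libraries and 83.9, 95.1 and 98.3 CPM in control libraries. Its log2 fold change was -0.64 ± 0.09 for KO against control and 3.51 ± 0.09 for OE against control (SE, n = 3 each; adjusted p = 5.14e-06 and 4.90e-18). All adjusted p-values are from edgeR's quasi-likelihood test and are adjusted by Benjamini-Hochberg across the 13390 genes tested. Gene counts do not show whether the SGPL1 transcripts left in KO cells carried the edit.

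Among the receptors and exporters, the pump ABCG2 had the largest fold change of KO against control among the 7 genes tested. Its mRNA was 2.23-fold higher in KO cells than in control cells. The related pump ABCC1 was 1.49-fold lower in KO cells, a difference that lost its call once a trend of KO fold changes with gene length and GC content was removed. None of the 4 receptors passed the test as counted. Of the 7 genes with enough counts to test, 1 rose, 1 fell and 5 did not pass in KO against control cells, where 51.9% of all 13390 genes tested were called (26.0% higher and 25.9% lower). In OE against control cells 0 of the 7 passed, where 18.6% of all genes did (9.28% higher and 9.34% lower). KO against OE cells had 1 higher, ABCG2, and 1 lower, ABCC1, where 57.6% of all genes were called (28.6% higher and 29.0% lower). The median log2 fold change of the 7 was 0.04 for KO against control, 0.23 for OE against control and -0.24 for KO against OE, beside -0.01 over all genes in each. Both comparisons with control cells use the same 3 control libraries.

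**Figure D1:**
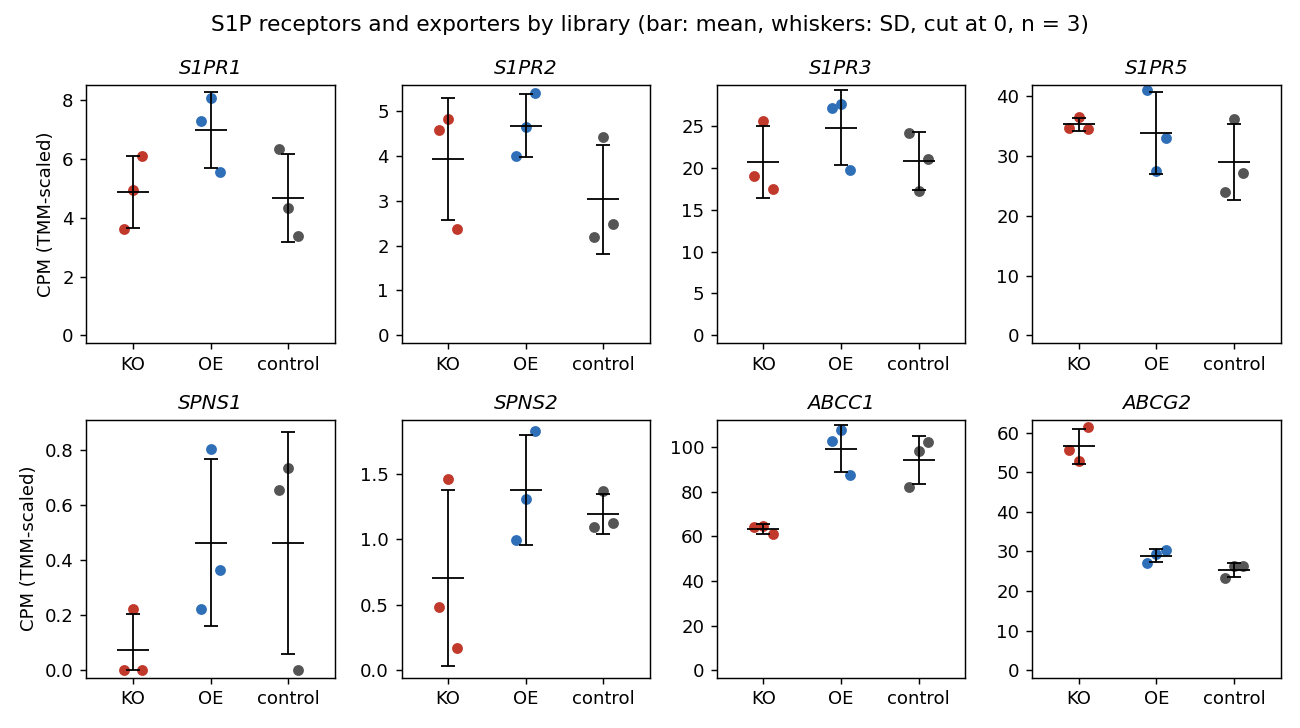
CPM (TMM-scaled) of the 8 genes in each of the 9 libraries, by group, with a bar at the mean and whiskers of 1 SD (n = 3, cut at 0). ABCG2 lies at 52.8 to 61.4 CPM in the KO libraries, above every OE and control library, ABCC1 lies lowest in the KO libraries, and the points of the other 6 genes overlap between groups.

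KO fold changes followed gene length over the whole transcriptome. The 10% of genes with the fewest exon bases had a median log2 fold change of 0.52 for KO against control, and the 10% with the most had one of -0.45. For OE against control these medians were -0.03 and -0.06. Many KO comparisons are therefore also given as "corrected". In that fit a smooth surface of length and GC content was removed from each library. This setting was known from earlier results of these data. After it, the same genes had medians of 0.15 and -0.02 for KO against control. The corrected median of the 7 genes tested was 0.27 for KO against control, beside 0.02 over all genes. SGPL1, S1PR1 and S1PR2 had corrected values of -0.461, 0.065 and 0.451 in that comparison (adjusted p = 7.39e-05, 0.879 and 0.303). In the corrected fit 2 of the 7 genes rose (ABCG2 and S1PR3) and 0 fell in KO against control cells, where 45.6% of all genes were called (24.8% higher and 20.7% lower). In OE against control and KO against OE cells the corrected counts were as before (0, and 1 higher with 1 lower), where 21.2% and 53.1% of all genes were called. DESeq2's Wald test and limma-voom, run without that correction, each gave 1 gene higher and 1 lower for KO against control, as edgeR did. For OE against control, DESeq2 and limma-voom also called 0 of the 7.

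The receptors come first. S1PR5 couples to Gi and G12/13 proteins and is best known from oligodendrocytes and natural killer cells. It is the shortest of the 8 genes in exons (ENSG00000180739; GRCh38 chromosome 19, 10512742 to 10517931, minus strand, 2803 exon bases). S1PR5 had 34.7, 36.6 and 34.5 CPM in KO libraries, 41.0, 27.4 and 33.0 CPM in OE libraries and 23.9, 36.1 and 27.1 CPM in control libraries. The KO libraries lay close together and inside the range of the OE libraries, and control replicate 2 lay between the higher KO libraries, just below the highest. The mean level was 35.3 ± 1.13 CPM in KO, 33.8 ± 6.80 CPM in OE and 29.0 ± 6.35 CPM in control cells (SD, n = 3 each). The log2 fold change for KO against control was 0.28 ± 0.15 (SE; 95% interval -0.04 to 0.60), with an adjusted p of 0.129, and the corrected value was 0.27 with 0.128. Without control replicate 2 it was 0.47 and passed (adjusted p = 0.0200). For OE against control it was 0.22 ± 0.15 (-0.10 to 0.52, adjusted p = 0.362), and for KO against OE 0.07 ± 0.15 (-0.25 to 0.37, adjusted p = 0.731).

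S1PR3 couples to Gi, Gq and G12/13 proteins and is known in vessels, heart and fibroblasts. Its annotation is the longest of the 8 in exon bases (ENSG00000213694; chromosome 9, 88990863 to 89005155, plus strand, 13702 exon bases). S1PR3 had 19.0, 25.6 and 17.4 CPM in KO libraries, 27.1, 27.6 and 19.7 CPM in OE libraries and 24.1, 17.3 and 21.0 CPM in control libraries. All 3 groups overlapped, with KO replicate 2 above every control library and the other KO libraries inside the control range. As counted, the log2 fold change for KO against control was 0.00 ± 0.17 (-0.36 to 0.36, adjusted p = 0.989). The corrected one was 0.51 ± 0.16 (0.18 to 0.84, adjusted p = 0.0121), 1.42-fold higher, so the call rests on the length and GC correction, which removed a trend of -0.50 for this gene. The corrected call was lost without KO replicate 2 (0.33, adjusted p = 0.139) and without control replicate 2 (0.38, adjusted p = 0.0864). For KO against OE the value changed sign with the correction, with -0.24 ± 0.17 (adjusted p = 0.228) as counted and 0.23 ± 0.16 (adjusted p = 0.226) corrected. For OE against control it was 0.25 ± 0.17 (-0.10 to 0.59, adjusted p = 0.349).

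S1PR1, which signals through Gi alone, is the receptor that guides lymphocytes out of lymph nodes and keeps endothelium tight (ENSG00000170989; chromosome 1, 101236865 to 101243713, plus strand). It had 3.62, 4.93 and 6.09 CPM in KO libraries (30, 44 and 36 counts), 7.30, 8.06 and 5.54 CPM in OE libraries (66, 80 and 76 counts) and 6.33, 4.32 and 3.37 CPM in control libraries (58, 41 and 30 counts). OE libraries 1 and 2 were higher than all others, and OE replicate 3 fell within the range of the KO and control libraries. The log2 fold change for OE against control was 0.57 ± 0.28 (-0.02 to 1.15, adjusted p = 0.178), and for KO against control 0.04 ± 0.30 (-0.58 to 0.66, adjusted p = 0.918). For KO against OE it was -0.52 ± 0.29 (-1.12 to 0.07, adjusted p = 0.124).

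S1PR2, a receptor that couples strongly to G12/13 proteins and often opposes cell migration, was as low as S1PR1 (ENSG00000267534; chromosome 19, 10221433 to 10231331, minus strand). It had 4.58, 4.82 and 2.37 CPM in KO libraries, 3.98, 4.64 and 5.40 CPM in OE libraries and 2.18, 4.42 and 2.47 CPM in control libraries. Those values rest on 14 to 74 counts per library, and KO replicate 3 and control replicate 2 each fell among the libraries of the other groups. The log2 fold change was 0.40 ± 0.35 for KO against control (-0.33 to 1.13, adjusted p = 0.359) and 0.63 ± 0.34 for OE against control (-0.07 to 1.33, adjusted p = 0.217). For KO against OE it was -0.23 ± 0.33 (-0.92 to 0.46, adjusted p = 0.575). The intervals of S1PR1 and S1PR2 reach past a doubling in OE against control, so these libraries cannot tell a difference of that size from none. S1PR2 shares 83 exon bases with DNMT1, which had 330 to 2237 counts per library. The counting used no strand option, and reads from shared bases cannot be assigned to either gene.

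**Figure D2:**
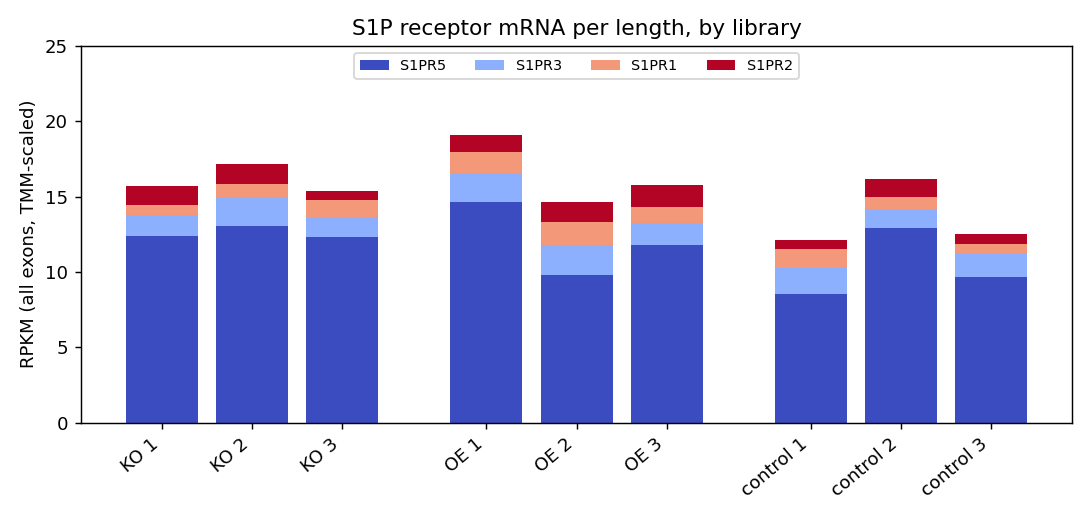
Level per length (RPKM, CPM per kilobase of all annotated exons) of the 4 receptors stacked for each library, with KO, OE and control libraries from left to right. S1PR5 makes up most of every bar, and the summed receptor level averages 16.1 RPKM in KO, 16.5 RPKM in OE and 13.6 RPKM in control libraries.

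Levels per length put S1PR5 far above the other receptors in all 3 groups. Per kilobase of annotated exon, S1PR5 had 12.6 ± 0.404 RPKM in KO, 12.1 ± 2.43 RPKM in OE and 10.4 ± 2.26 RPKM in control cells (SD, n = 3 each). S1PR3 had 1.51 ± 0.315 RPKM in KO, 1.81 ± 0.324 RPKM in OE and 1.52 ± 0.250 RPKM in control cells. S1PR1 had 0.934 ± 0.237 RPKM in KO, 1.34 ± 0.248 RPKM in OE and 0.895 ± 0.289 RPKM in control cells. S1PR2, with 1.08 ± 0.371 RPKM in KO, 1.28 ± 0.194 RPKM in OE and 0.831 ± 0.335 RPKM in control cells, overlapped S1PR1 in each group on this scale. S1PR5 thus held 78.2 ± 2.07% of the summed receptor level in KO, 72.8 ± 5.12% in OE and 75.8 ± 4.73% in control cells. The share depends on the length taken for each gene. Per base of the longest GENCODE transcript, which is 8505 bases for S1PR3 and 2341 for S1PR5, the S1PR5 share was 74.5 ± 2.01% in KO, 68.3 ± 5.79% in OE and 71.3 ± 6.15% in control cells. On that scale S1PR1 averaged above S1PR2 in every group. S1PR1 had 1.68 ± 0.425 RPKM in KO, 2.40 ± 0.444 RPKM in OE and 1.61 ± 0.520 RPKM in control cells, and S1PR2 had 1.08 ± 0.371 RPKM in KO, 1.28 ± 0.194 RPKM in OE and 0.831 ± 0.335 RPKM in control cells. The libraries of both genes overlapped in KO and control cells but not in OE cells, where S1PR1 was at least 1.91 RPKM and S1PR2 at most 1.48 RPKM. S1PR5 ranked above 73.8% of all tested genes in KO, 73.8% in OE and 70.2% in control cells, whereas S1PR1, S1PR2 and S1PR3 ranked above at most 27.8% in any group. S1PR4, the family's receptor of blood cells, had 9 counts in all KO libraries together, 7 in OE and 14 in control, too few to test.

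The exporters spanned levels from near the limit of detection to the highest CPM of the 8 genes. SPNS2, the dedicated S1P transporter of the plasma membrane, was among the lowest (ENSG00000183018; chromosome 17, 4498881 to 4539035, plus strand). It had 4, 13 and 1 counts in KO libraries, 9, 13 and 25 counts in OE libraries and 10, 13 and 10 counts in control libraries. KO replicate 2 had as many counts as control replicate 2, while the other KO libraries lay below all control libraries. In level this was 0.703 ± 0.672 CPM in KO, 1.38 ± 0.418 CPM in OE and 1.20 ± 0.152 CPM in control cells. The log2 fold change for KO against control was -0.66 ± 0.63 (-1.95 to 0.63, adjusted p = 0.394), for OE against control 0.23 ± 0.55 (-0.92 to 1.37, adjusted p = 0.830) and for KO against OE -0.88 ± 0.60 (-2.13 to 0.36, adjusted p = 0.217). Without KO replicate 2 the last of these was -1.97 and passed (adjusted p = 0.0327). The KO against control value also rested on single KO libraries, at -1.75 without KO replicate 2 (adjusted p = 0.0693), -0.41 without KO replicate 1 (adjusted p = 0.650) and -0.28 without KO replicate 3 (adjusted p = 0.737). Corrected, SPNS2 had -0.37 for KO against control (adjusted p = 0.658) and -0.57 for KO against OE (adjusted p = 0.4445). SPNS2 shares 139 exon bases with MYBBP1A on the opposite strand. MYBBP1A had 352 to 1822 counts per library, and reads from the shared bases cannot be assigned.

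SPNS1, a lysosomal relative known for carrying lysophospholipids out of lysosomes, had 0, 2 and 0 counts in KO libraries, 2, 8 and 5 counts in OE libraries and 6, 7 and 0 counts in control libraries (ENSG00000169682; chromosome 16, 28974221 to 28984548, plus strand). It did not pass the filter on low counts. The ratio of KO to control was 0.183, with a 95% counting interval of 0.0201 to 0.810, and that of OE to control was 0.973 (0.432 to 2.22). These intervals cover counting error only, and control replicate 3 had no count, as had KO replicates 1 and 3. The count of SPNS1 is uncertain for another reason. Of its 3792 exon bases, 2377 are shared with other annotated genes (ENSG00000261067 and ENSG00000260367), and 46.0% of the 75-base words in its transcripts also occur in transcripts of other genes. By default featureCounts leaves reads that overlap several genes uncounted, so the low count is uncertain as a measure of SPNS1 mRNA.

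ABCC1, also called MRP1, is a pump for glutathione conjugates, leukotriene C4 and drugs, and is known to release S1P from mast cells (ENSG00000103222; chromosome 16, 15949577 to 16143074, plus strand, 7575 exon bases). It had 64.2, 64.8 and 60.9 CPM in KO libraries, 102.7, 107.8 and 87.5 CPM in OE libraries and 82.3, 98.1 and 102.5 CPM in control libraries. All KO libraries lay below every other library, and OE and control libraries overlapped. ABCC1 averaged 63.3 ± 2.12 CPM in KO, 99.3 ± 10.5 CPM in OE and 94.3 ± 10.6 CPM in control cells. The log2 fold change for KO against control was -0.57 ± 0.10 (-0.78 to -0.36, adjusted p = 5.50e-05). Corrected, it was -0.19 ± 0.09 (-0.37 to -0.00, adjusted p = 0.0901), and the call returned without control replicate 1 (-0.26, adjusted p = 0.0327). Against OE cells ABCC1 was 1.56-fold lower in KO cells (-0.65 ± 0.10, adjusted p = 9.06e-06). Corrected, this was -0.28 ± 0.09 (adjusted p = 0.00914), a call lost without OE replicate 2 (-0.23, adjusted p = 0.0561). For OE against control ABCC1 had 0.07 ± 0.10 (-0.13 to 0.28, adjusted p = 0.676).

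ABCG2, also called BCRP, is a half-transporter that pairs into a pump for drugs, porphyrins and urate, and is known together with ABCC1 to release S1P from breast cancer cells (ENSG00000118777; chromosome 4, 88090150 to 88231628, minus strand, 5602 exon bases). It had 55.6, 52.8 and 61.4 CPM in KO libraries, 27.1, 29.4 and 30.3 CPM in OE libraries and 23.4, 26.2 and 26.4 CPM in control libraries. Each KO library was above every OE and control library, and the lowest OE library was just above the highest control library. ABCG2 averaged 56.6 ± 4.38 CPM in KO, 29.0 ± 1.66 CPM in OE and 25.3 ± 1.71 CPM in control cells. The log2 fold change for KO against control was 1.16 ± 0.12 (0.92 to 1.39), 2.23-fold (1.89 to 2.63), with an adjusted p of 1.75e-08. Corrected, it was 1.03 ± 0.11, 2.04-fold (adjusted p = 1.98e-08). A log2 change of at least the as-counted size, in either direction, occurred in 10.6% of all genes tested. KO cells exceeded OE cells 1.95-fold (0.96 ± 0.11, adjusted p = 1.36e-07, and corrected 0.82, adjusted p = 3.94e-07). For OE against control the value was 0.20 ± 0.12 (-0.05 to 0.44, adjusted p = 0.271) although the libraries did not overlap, as was the case for 34.8% of all genes tested. ABCG2 and ABCC1 were the 2 members whose KO and control libraries did not overlap, which held for 59.5% of all genes. They were also the 2 without overlap between KO and OE libraries, which held for 61.6%.

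**Figure D3:**
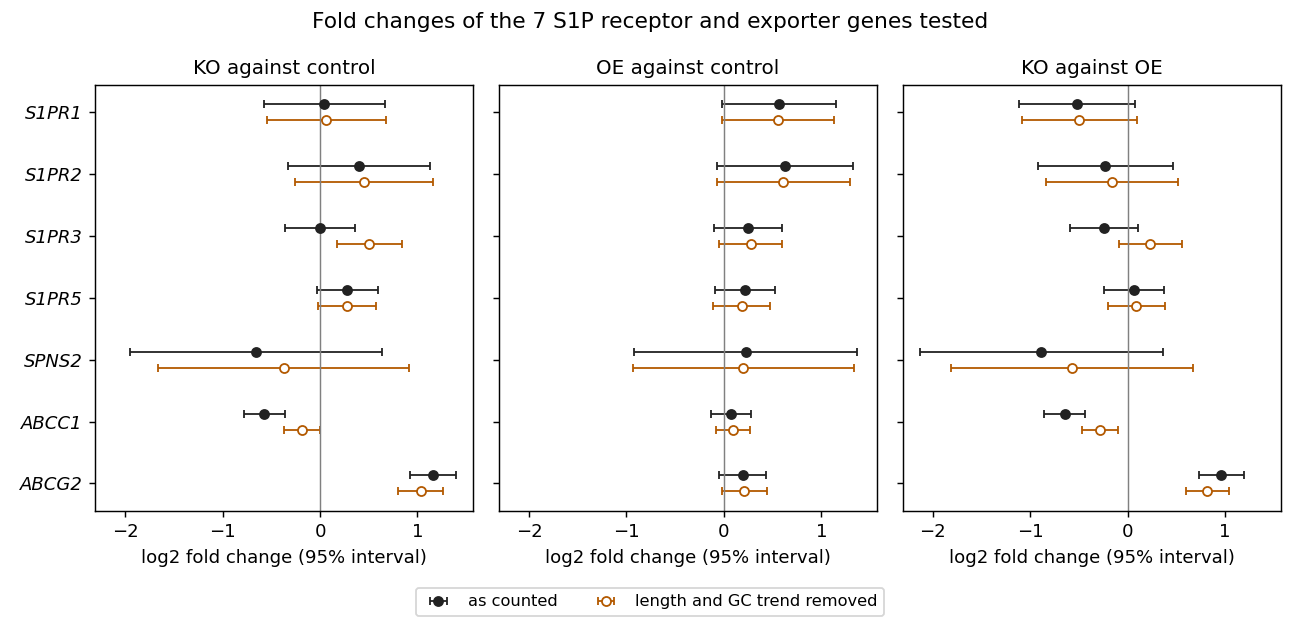
Log2 fold change with its 95% interval of the 7 genes tested, in KO against control, OE against control and KO against OE, from counts as deposited (filled) and with the length and GC trend removed (open). ABCG2 stays at 1.16 and 1.03 in KO against control, ABCC1 moves from -0.57 as counted to -0.19 corrected, and S1PR3 from 0.00 to 0.51.

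As counted, the order of the pumps by level per length differed in KO cells. Per kilobase of annotated exon, ABCC1 had 8.36 ± 0.280 RPKM in KO, 13.1 ± 1.39 RPKM in OE and 12.5 ± 1.40 RPKM in control cells, and ABCG2 had 10.1 ± 0.781 RPKM in KO, 5.17 ± 0.297 RPKM in OE and 4.52 ± 0.306 RPKM in control cells. The ratio of ABCG2 to ABCC1 within a library was 1.17, 1.10 and 1.36 in KO libraries, 0.357, 0.369 and 0.469 in OE libraries and 0.384, 0.362 and 0.348 in control libraries. It was above 1 in the KO libraries and below 0.5 in all others. In KO cells the order of levels was S1PR5, ABCG2 and ABCC1, with no overlap between neighbours. In control cells ABCC1 and S1PR5 overlapped at the top, ABCG2 and S1PR3 followed, S1PR1 and S1PR2 overlapped below them, and SPNS2 and SPNS1 were lowest. The length correction moves the ratio of ABCG2 to ABCC1 as well. The trend it removed from the log2 fold change for KO against control was -0.39 for ABCC1 and 0.13 for ABCG2. Both trends raised the ratio in KO libraries. Together they exceed its distance above 1 there, so the change of order rests on the values as counted.

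RefSeq promoter windows, the 250 bases before an annotated start, were at hand for 6 of the 8 genes (build GRCh38.p14, written 5′ to 3′ on the transcribed strand). SPNS2 and ABCC1 had none. The 2 windows printed are those of the gene that rose and of the highest receptor, which did not pass a test. They were searched on both strands for GCGTG, the core bound by the aryl hydrocarbon receptor AHR, and for TGACNNNGC, the core bound by NRF2, both known regulators of ABCG2. Capitals mark matches of either core, written as CACGC where the AHR core lies on the other strand. The first is chr4:88158910-88159159 on the minus strand, and the second chr19:10517966-10518215 on the minus strand.
ABCG2: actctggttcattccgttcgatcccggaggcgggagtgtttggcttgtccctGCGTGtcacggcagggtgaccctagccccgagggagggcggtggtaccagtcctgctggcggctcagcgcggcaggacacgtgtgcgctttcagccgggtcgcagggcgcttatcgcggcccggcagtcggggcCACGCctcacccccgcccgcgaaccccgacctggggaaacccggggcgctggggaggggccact
S1PR5: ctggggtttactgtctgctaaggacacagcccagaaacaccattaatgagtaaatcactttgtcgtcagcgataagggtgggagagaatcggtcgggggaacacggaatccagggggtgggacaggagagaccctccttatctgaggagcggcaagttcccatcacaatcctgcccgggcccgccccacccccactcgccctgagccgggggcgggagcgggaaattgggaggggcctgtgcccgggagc
The ABCG2 window holds 2 AHR cores and no NRF2 core, with 71.2% GC and 27 CG pairs. The S1PR5 window printed, the more upstream of 2, holds neither, with 61.6% GC and 13 CG pairs. The other S1PR5 window (chr19:10517448-10517697) also holds neither, with 78% GC and 27 CG pairs. Among all 35116 RefSeq windows, 32.2% hold GCGTG and 10.9% hold TGACNNNGC, and the median window has 58% GC and 11 CG pairs. The HIF core ACGTG and the E-box CACGTG were also searched and are not capitalised. The printed ABCG2 window holds 2 HIF cores and 1 E-box, the SPNS1 window 4 and 2, and the S1PR5 windows none. Of all windows, 18.5% hold the HIF core and 6.3% the E-box. Of the 5 ABCG2 windows, the 3 with starts in the GC-rich region hold 2 AHR cores each and the other 2 hold none. The printed ABCG2 window overlaps the one at chr4:88158860-88159109, and the 2 cores of both are the same sites. S1PR3 has 2 AHR cores in 1 of its 2 windows, S1PR2 has 2 and S1PR1 has 1 with 1 NRF2 core. A match describes letters only, and RNA counts do not show which start was used.

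Genes known to regulate ABCG2 and ABCC1, or to report on those regulators, were tested for 12 of 13 genes. In KO against control cells 4 rose, 1 fell and 7 did not pass, where 51.9% of all genes were called. The list's median log2 fold change was 0.17, beside -0.01 for all genes tested. With the correction 6 rose and 2 fell, where 45.6% of all genes were called. NQO1, a quinone reductase induced by NRF2 and AHR, had 180.8 ± 18.4 CPM in KO, 98.7 ± 5.18 CPM in OE and 81.9 ± 5.35 CPM in control cells (KO against control 1.14 ± 0.09, adjusted p = 6.31e-10, corrected 0.83). PPARG, a nuclear receptor of lipid metabolism, had 88.7 ± 6.99 CPM in KO, 49.9 ± 3.13 CPM in OE and 49.4 ± 1.99 CPM in control cells (0.84 ± 0.10, adjusted p = 1.64e-07, corrected 0.68). TIPARP, an AHR target that shuts AHR off, also rose in KO cells (0.63 ± 0.08, adjusted p = 4.98e-07, corrected 0.48). AHR itself had 25.1 ± 4.57 CPM in KO and 30.1 ± 1.42 CPM in control cells (-0.28 ± 0.14, adjusted p = 0.105), and the NRF2 gene NFE2L2 had 119.7 ± 12.3 CPM in KO and 105.4 ± 9.06 CPM in control cells (0.18 ± 0.10, adjusted p = 0.109). CYP1B1 also rose (1.05 ± 0.16, adjusted p = 1.02e-05), and ARNT was the 1 that fell (-0.39 ± 0.12, adjusted p = 0.00715). CYP1A1 (-0.24 ± 0.44, adjusted p = 0.675) and HMOX1 (0.20 ± 0.39, adjusted p = 0.688) did not pass. AHR, NFE2L2, CYP1B1, ARNT, CYP1A1 and HMOX1 were named after their values were seen. OE cells had 2 of the 12 higher and 2 lower than control cells, where 18.6% of all genes were called.

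Of the other members of the receptor and transporter families, 10 of 13 had enough counts. In KO against control cells 3 rose, 3 fell and 4 did not pass, where 51.9% of all genes were called. With the correction 4 rose and 0 fell, where 45.6% of all genes were called. ABCC3, a pump for bile salts and glucuronides, had 23.2 ± 1.85 CPM in KO, 12.7 ± 2.53 CPM in OE and 8.86 ± 1.5 CPM in control cells (KO against control 1.39 ± 0.18, adjusted p = 1.22e-06, corrected 1.92). ABCG1, a cholesterol exporter, rose in KO cells (0.68 ± 0.15, adjusted p = 0.000396, corrected 0.92). ABCC5, an exporter of cyclic nucleotides, fell as counted (-0.54 ± 0.10, adjusted p = 0.000114), and did not pass when corrected (-0.06, adjusted p = 0.613). OE cells had 1 of the 10 higher and 5 lower than control cells, where 18.6% of all genes were called. ABCC2, named after its values were seen, had 64.8 ± 5.03 CPM in KO, 14.7 ± 0.971 CPM in OE and 48.3 ± 0.904 CPM in control cells, and fell in OE cells (-1.72, adjusted p = 1.86e-10).

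Receptors for lysophosphatidic acid, a related signalling lipid that shares G proteins with S1P, were tested for 5 of 6 genes. In KO against control cells 4 rose and 1 fell, with a median log2 fold change of 0.93, where 51.9% of all genes were called. With the correction 3 rose and 1 fell, where 45.6% of all genes were called. LPAR1 had 33.6 ± 3.51 CPM in KO, 26.9 ± 2.67 CPM in OE and 16.8 ± 2.61 CPM in control cells (KO against control 1.00 ± 0.15, adjusted p = 4.05e-06, corrected 0.76). LPAR3 rose in KO cells (0.95 ± 0.14, adjusted p = 6.23e-06, corrected 0.61) and LPAR5 fell (-0.66 ± 0.15, adjusted p = 0.000738, corrected -0.74). OE cells differed from control cells in 1 of the 5, LPAR1, which was also higher there (0.68, adjusted p = 0.00138). Of all genes, 18.6% were called in that comparison. Whether these receptors and those of S1P moved differently was not tested.

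**Figure D4:**
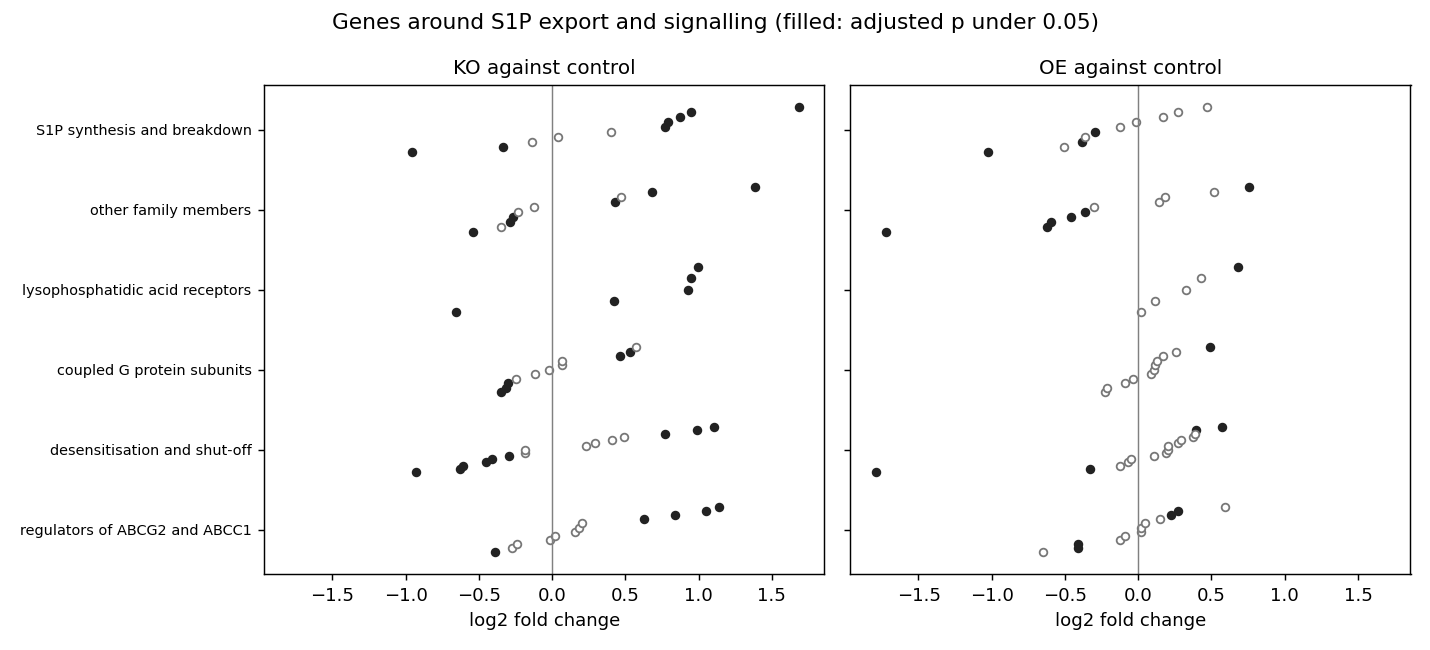
Log2 fold change of each tested gene of 6 lists around S1P export and signalling, for KO against control (left) and OE against control (right), filled where the adjusted p is under 0.05 and with SGPL1 left out. ABCC3 lies at 1.39 in KO against control, 4 of the 5 lysophosphatidic acid receptors lie above 0 and pass there, and ABCC2 lies at -1.72 in OE against control.

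Of the 11 G protein subunits that couple to S1P receptors, 2 rose, 3 fell and 6 did not pass in KO against control cells. Once corrected, 4 rose and 1 fell. Over all genes, 51.9% were called as counted and 45.6% corrected. GNG12 (0.53 ± 0.08, adjusted p = 4.81e-06, corrected 0.27) and GNAI3 (0.46 ± 0.09, adjusted p = 0.000106, corrected 0.59) rose. GNB1 fell as counted (-0.30 ± 0.07, adjusted p = 0.00159) but did not pass when corrected (-0.10, adjusted p = 0.256). OE cells had 1 subunit higher and 0 lower than control cells, where 18.6% of all genes were called.

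Genes that desensitise receptors or shut off G proteins split differently with and without the length correction. In KO against control cells 3 of 15 rose and 6 fell as counted, where 51.9% of all genes were called. Once corrected, 7 rose and 1 fell, where 45.6% of all genes were called. RGS10 (1.11 ± 0.13, adjusted p = 3.58e-07, corrected 0.64) and RGS2 (0.99 ± 0.16, adjusted p = 1.55e-05, corrected 0.54), which speed GTP hydrolysis by G alpha subunits, rose in both fits. GRK2, the kinase that marks active receptors for arrestin, fell as counted (-0.61 ± 0.09, adjusted p = 5.03e-06) but not when corrected (-0.16, adjusted p = 0.118). Between OE and control cells 2 of the 15 rose and 2 fell, where 18.6% of all genes were called.

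The enzymes that make and break down S1P had 5 higher and 3 lower of 11 in KO against control cells, as counted and corrected. The 3 lower were SGPL1, the edited gene itself, SPHK2 and ACER3. Over all genes, 51.9% were called as counted and 45.6% corrected. ASAH1, SGPP1 and PLPP2 came first by p among the higher enzymes. In OE against control cells 1 of these enzymes rose, SGPL1 itself, and 3 fell, where 18.6% of all genes were called.

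The genes whose profiles over the 9 libraries were most like those of the pumps were sought among 10521 genes with a symbol and at least 5 CPM. For ABCG2 they were RPS15, TIMM9 and LYPLA1, with a root mean square difference of centred log2 CPM of 0.09, 0.10 and 0.10, against a median of 0.56 over all genes compared. RPS15, a protein of the small ribosomal subunit, had 887 ± 34.8 CPM in KO, 433 ± 31.9 CPM in OE and 418 ± 7.68 CPM in control cells. For ABCC1 they were TYK2, PCNX3 and CRYBG1, at 0.04, 0.05 and 0.05 against a median of 0.39. The Janus kinase TYK2 had 37.3 ± 1.31 CPM in KO, 61.2 ± 7.48 CPM in OE and 57.3 ± 6.71 CPM in control cells. Such likeness is a description over 9 libraries that share 3 genotypes. It was taken on values as counted, which carry the KO trend with length and GC content. That trend was -0.39 for ABCC1 and 0.13 for ABCG2 in KO against control. Around ABCG2, 10 genes within 1 Mb on either side had a median log2 fold change of -0.01 for KO against control, with 4 higher and 1 lower. Around ABCC1, 12 genes had a median of -0.05, with 4 higher and 4 lower. Of all genes tested, 51.9% were called in KO against control (26.0% higher and 25.9% lower).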

How the data were processed

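Poly-A selected RNA of 9 libraries was sequenced in read pairs, per the labels' protocols. The deposited values are whole-number counts per gene, made by the authors with featureCounts 1.5.2 on Ensembl release 101 (GRCh38), per the file headers. The submitters' processing notes list HISAT2 1.03 and another version of featureCounts, 0.1.0. The headers show no option for strand, read pairs, multi-mapping or overlap, so both mates may be counted.

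The counts were fitted in edgeR 4.0.16 (R 4.3.3) after TMM scaling. The filter was filterByExpr at a minimum count of 10, and 13390 genes passed. A quasi-likelihood fit of all 9 libraries had the group as its only term (common biological coefficient of variation 10.2%). Contrasts were tested two-sided, with Benjamini-Hochberg adjustment over all genes and a threshold of 0.05. In the corrected fit, a loess surface (span 0.3) over log2 exon length and GC content (known for 99.6% of tested genes, from GENCODE release 29) entered as an offset per library. RPKM use all exon bases in the count files unless stated. Replicate libraries differed by more than sampling noise (chi-square per degree of freedom 2.74 to 11.7). Scripts were tested on simulated data. Promoter windows come from RefSeq.

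The genes, lists and settings were chosen with earlier results of these data known. All 8 genes are named, with SGPL1, up to 3 genes of each list by smallest p in KO against control, and the 3 genes most like each changed member. Alternatives were DESeq2 1.42.0, limma-voom (limma 3.58.1), other scalings, filters and thresholds, 2-group fits, a block by title number, and fits without each library. Of the lists examined, 2 are not reported here.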

Additional observations from a re-analysis of the deposited data

How the results depend on the processing

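The number of genes changed among the 7 tested stayed at 2, 0 and 2 (KO against control, OE against control, KO against OE) under other scalings, filters and thresholds, DESeq2, limma-voom and fits of only the groups compared. With a minimum count of 30, SPNS2 dropped out and 6 were tested. Leaving out each library gave 2 to 3, 0 to 0 and 2 to 3, the added ones being S1PR5 without control replicate 2, S1PR3 without OE replicate 3 (-0.40, adjusted p = 0.0462) and SPNS2 without KO replicate 2. Over all genes it gave 6033 to 7188, 1735 to 2593 and 6873 to 7633 called. At an adjusted p under 0.01, 1431 genes passed in OE against control, against 2493 at 0.05. ABCG2 in KO against control kept its call under every alternative run, at 1.10 to 1.20 without each library. The sign of small values depended on the setting, for causes that were not tested. For S1PR3 in KO against control it was -0.001 by DESeq2's Wald test, -0.013 without a filter, -0.003 with a minimum count of 30 and -0.014 with the replicate block, and in KO against OE 0.232 with the trend removed and 0.224 with trend and block. Leaving out each library, KO against control ranged from -0.141 to 0.323 for S1PR1 (-0.122 to 0.355 with the trend removed) and from -0.186 to 0.123 for S1PR3. OE against control ranged from -0.039 to 0.399 for SPNS2 (-0.077 to 0.379 with the trend removed) and from -0.016 to 0.168 for ABCC1. KO against OE ranged from -0.062 to 0.218 for S1PR5 (-0.027 to 0.248 with the trend removed), from -0.333 to 0.065 for S1PR2 and from 0.058 to 0.325 for S1PR3, both with the trend removed. Trend removal with a library left out was added after seeing the data. Titles number the libraries 1 to 3 in each group. The deviations of same-numbered libraries had correlations of -0.0772 to 0.066, and those of differently numbered libraries -0.0859 to 0.109. Whether the numbers pair the libraries was not tested. With the replicate block, 2, 0 and 2 of the 7 genes passed, as without it. SPNS1 and SPNS2 had at most 25 counts in a library, which limits what can be said of them.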
